A study of Mus musculus with 10 samples.

Results

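Immediate early genes are genes whose RNA appears within minutes of a stimulus without new protein synthesis. The 10 described here are Fos, Fosb, Jun, Junb, Atf3, Egr1, Nr4a1, Ier2, Ier3 and Dusp1, chosen by name from the gene names that the array files give to their probes. They are 10 of the 27554 gene names on the array and were read by 12 probes. All 12 probes were well above background on all 10 arrays of mouse ileum, the final stretch of the small intestine, so every member was tested.

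In a resting cell these genes are nearly silent, and growth factors, stretch, injury or stress switch them on through MAP kinases, which act on serum response factor and on CREB-type factors already bound at their promoters. Fos, Fosb, Jun and Junb encode subunits of the dimeric transcription factor AP-1, and ATF3 pairs with Jun proteins. Egr1 and Nr4a1 encode a zinc finger factor and an orphan nuclear receptor, and Dusp1 encodes a phosphatase that inactivates the MAP kinases. In tissue samples such genes are also known to respond to handling between death and freezing.

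The arrays formed 5 groups of 2 replicates, all from C57BL/6 mice 6 to 8 weeks old. Sox2xOct4 +DOX mice carried both the TetON-Sox2 and the TetON-Oct4 transgenes, Oct4 +DOX mice carried TetON-Oct4, and Sox2 +DOX mice carried TetON-Sox2. A TetON transgene is transcribed when doxycycline (DOX) binds the regulator rtTA. The controls were rtTA +DOX mice, which had rtTA and no TetOP-Sox2 transgene, and Sox2 -DOX mice, which carried TetON-Sox2 and were left untreated. DOX was given for 2 days at 2 mg/ml in drinking water with 1% sucrose, so the Sox2 -DOX group differs from the others in sucrose too as far as the labels say. The promoter that drives rtTA and the cells it reaches are not given in the sources used here, and neither is the time from CO2 death to freezing of the cleaned, chopped ileum. Slide 1 held all 4 TetON-Sox2 arrays, slide 2 the Sox2xOct4 +DOX and rtTA +DOX arrays, and slide 3 the Oct4 +DOX arrays. Group and slide cannot be told apart in any comparison across slides. The labels do not say that the replicates of a group are separate animals, so p-values measure the spread between these samples, which may be technical. With 2 arrays a group, the number of arrays limits the precision of every value. In whole tissue, fewer cells of a type and less RNA per cell cannot be told apart.

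Levels are given as log2 of the background-subtracted signal over the 75th percentile of the array, so that 0 is the signal of a probe at that percentile. Between 63.5 and 70.5% of probes were well above background on an array, and replicates correlated with r of 0.959 to 0.984 over genes. Pou5f1, the gene that encodes Oct4, was well above background on both Sox2xOct4 +DOX arrays and both Oct4 +DOX arrays and on none of the other 6. The single Sox2 probe was not well above background on any array, so it does not check the Sox2 labels. All 10 epithelial markers and all 6 ileal enterocyte markers examined were well above background on every array. Spots of one array showed how finely a level was read, since Fos and Jun were each printed 10 times.

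The stretch of DNA just upstream of the start is where most of these genes receive their signals. RefSeq promoter windows (GRCm38.p6) were matched for 8 of the 10 members, all but Egr1 and Ier2. The 4 shown belong to the members whose groups differed most, and each runs 250 bases up to the annotated start, with matches to the searched motifs in capitals. In these lines the capitals are the cyclic AMP response element (CRE) core TGACG on either strand and the TATA box TATAAA. Fos lies on the plus strand (chr12:85473640-85473889), Atf3 on the minus strand (chr1:191183334-191183583), Jun on the minus strand (chr4:95052223-95052472) and Nr4a1 on the plus strand (chr15:101266596-101266845).
Fos: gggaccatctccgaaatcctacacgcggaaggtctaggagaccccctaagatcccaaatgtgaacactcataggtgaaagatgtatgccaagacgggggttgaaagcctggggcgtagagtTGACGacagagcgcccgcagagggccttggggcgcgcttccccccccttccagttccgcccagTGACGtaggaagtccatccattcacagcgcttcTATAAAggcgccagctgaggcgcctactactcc
Atf3: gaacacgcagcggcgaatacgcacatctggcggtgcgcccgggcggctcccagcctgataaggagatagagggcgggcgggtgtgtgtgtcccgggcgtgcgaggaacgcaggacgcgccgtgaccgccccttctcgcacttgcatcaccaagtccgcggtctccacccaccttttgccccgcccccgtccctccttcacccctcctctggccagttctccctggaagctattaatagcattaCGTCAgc
Jun: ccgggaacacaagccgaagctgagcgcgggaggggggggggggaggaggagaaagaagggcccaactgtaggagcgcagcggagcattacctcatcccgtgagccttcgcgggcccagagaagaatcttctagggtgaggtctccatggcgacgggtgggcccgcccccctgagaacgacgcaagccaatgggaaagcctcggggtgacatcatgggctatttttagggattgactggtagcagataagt
Nr4a1: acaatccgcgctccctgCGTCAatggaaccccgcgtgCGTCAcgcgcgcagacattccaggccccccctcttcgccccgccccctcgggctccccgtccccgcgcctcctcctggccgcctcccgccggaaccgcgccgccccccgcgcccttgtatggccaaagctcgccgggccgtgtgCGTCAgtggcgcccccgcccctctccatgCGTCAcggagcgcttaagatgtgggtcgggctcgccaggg

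The core TGACG was present in 6 of the 8 windows, against 17.77% of 32851 RefSeq windows of the same length. The Nr4a1 window held 4 cores, the Dusp1 window 3, the Fos window 2, and the Fosb, Junb and Atf3 windows 1 each. The Jun and Ier3 windows matched no searched motif. The full element TGACGTCA, which contains the core on both strands, was found in Dusp1 alone, against 1.55% of all windows. The Fos window was the only member window with TATAAA, found in 12.37% of all windows. The AP-1 site TGANTCA and the CArG box, the binding motif of serum response factor, matched no member window, against 6.75 and 1.47% of all windows. The searches covered both strands and these windows only, and a match is a description of letters, not of binding. Windows with cores thus belonged both to a member with low signal on the arrays with induced Sox2 (Atf3) and to one with high signal there (Nr4a1).

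**Figure D1:**
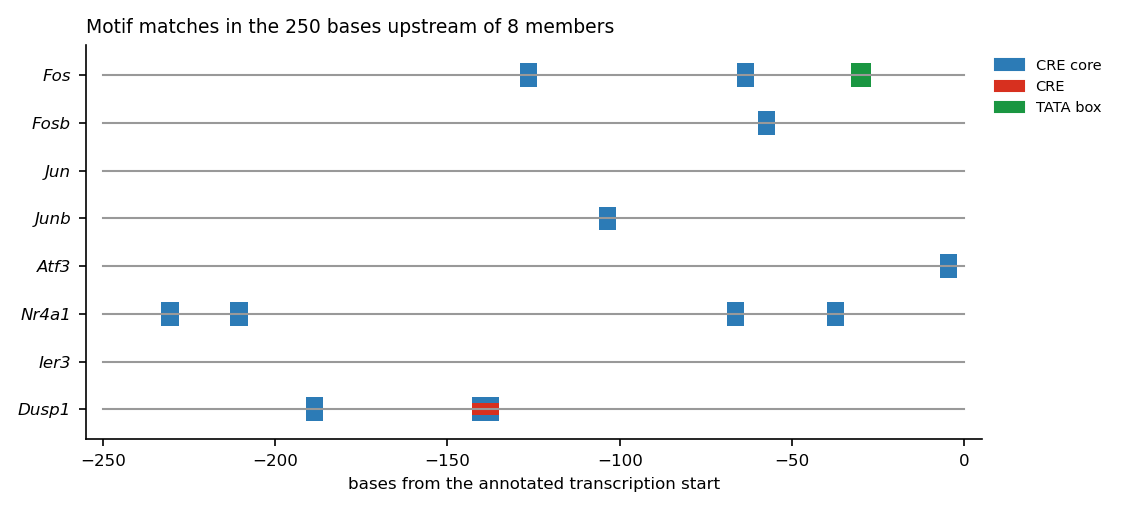
Matches to 3 motifs in the 250 bases upstream of the RefSeq start of 8 members, with bases from the start on the horizontal axis. Blue blocks are CRE cores, the narrow red block the full CRE and the green block the TATA box. Nr4a1 has 4 cores and Jun and Ier3 have none.

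Fos, the AP-1 subunit most used as a sign of recent stimulation, was read by a probe at chromosome 12, 86366053 to 86366112 (NCBI36/mm8, plus strand). Its levels were 0.43 and -0.03 in Sox2xOct4 +DOX replicates 1 and 2, 1.17 and 0.02 in Oct4 +DOX, 0.70 and 1.92 in Sox2 +DOX, 3.17 and 2.56 in rtTA +DOX, and 2.32 and 2.00 in Sox2 -DOX. Both arrays of each control group lay above all 6 arrays with an induced transgene, by a narrow margin over Sox2 +DOX replicate 2. Among the induced groups the arrays of neighbouring groups overlapped, and Sox2 +DOX was the group whose replicates lay furthest apart, by 1.22. The 10 spots of the probe differed by an SD of 0.04 to 0.11 on an array, which is technical error only, and the margin between Sox2 -DOX replicate 2 and Sox2 +DOX replicate 2 was no larger than that spread. Fosb, a close relative of Fos, was much dimmer, and its probe lay at chromosome 7, 18461650 to 18461709 (minus strand). Fosb stood at -4.31 and -4.43 in Sox2xOct4 +DOX, -3.91 and -4.13 in Oct4 +DOX, -4.84 and -4.47 in Sox2 +DOX, -3.36 and -2.47 in rtTA +DOX, and -4.13 and -3.85 in Sox2 -DOX. The rtTA +DOX arrays were the highest, Sox2 -DOX and Oct4 +DOX overlapped, and both Sox2 +DOX arrays were below all others.

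Jun, the partner that Fos proteins need to bind DNA as AP-1, was read at chromosome 4, 94541191 to 94541250 (minus strand). Its levels were -0.36 and 1.18 in Sox2xOct4 +DOX, 0.97 and 1.03 in Oct4 +DOX, -0.82 and -0.58 in Sox2 +DOX, 1.99 and 2.13 in rtTA +DOX, and 1.78 and 1.21 in Sox2 -DOX. All 4 control arrays again lay above the 6 induced ones, narrowly so for Sox2 -DOX replicate 2 against Sox2xOct4 +DOX replicate 2. The Sox2xOct4 +DOX replicates differed by 1.54, while the Oct4 +DOX replicates differed by 0.05. Junb, which replaces Jun in AP-1 dimers, had 2 overlapping probes on chromosome 8. The brighter gave 4.59 and 5.24 in Sox2xOct4 +DOX, 5.33 and 6.06 in Oct4 +DOX, 4.49 and 4.99 in Sox2 +DOX, 5.68 and 6.08 in rtTA +DOX, and 5.95 and 5.45 in Sox2 -DOX. The Sox2xOct4 +DOX and Sox2 +DOX arrays were the 4 lowest, and Oct4 +DOX overlapped both control groups. On the dimmer Junb probe Oct4 +DOX, at 4.89 and 5.01, lay below all 4 control arrays, at 5.08 to 5.73, so the probes differ on this group.

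Atf3, a stress-induced factor of the ATF and CREB family, varied most of all members. It was read at chromosome 1, 192871283 to 192871342 (minus strand), and stood at -0.37 and 0.26 in Sox2xOct4 +DOX, 1.02 and 0.98 in Oct4 +DOX, -2.27 and -0.24 in Sox2 +DOX, 2.69 and 3.56 in rtTA +DOX, and 1.74 and 1.24 in Sox2 -DOX. The groups fell in the order rtTA +DOX, Sox2 -DOX, Oct4 +DOX, Sox2xOct4 +DOX and Sox2 +DOX, and only the last pair overlapped. From the lowest to the highest array the span was 5.83. The Sox2 +DOX replicates differed by 2.03, the largest gap between replicates of any member.

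Egr1 and Nr4a1 did not follow the AP-1 genes. Egr1, a zinc finger factor induced with Fos by serum, stood at 3.42 and 1.85 in Sox2xOct4 +DOX, 1.28 and 1.18 in Oct4 +DOX, 1.33 and 2.00 in Sox2 +DOX, 2.08 and 2.24 in rtTA +DOX, and 1.53 and 0.87 in Sox2 -DOX. Sox2xOct4 +DOX replicate 1 was the highest of the 10 arrays, and its replicate lay below both rtTA +DOX arrays. Nr4a1, the nuclear receptor also called Nur77, was read at chromosome 15, 101102674 to 101102733 (plus strand). It stood at 3.05 and 2.04 in Sox2xOct4 +DOX, 0.66 and 1.91 in Oct4 +DOX, 1.90 and 2.24 in Sox2 +DOX, 0.54 and 0.83 in rtTA +DOX, and 0.30 and 0.11 in Sox2 -DOX. Sox2xOct4 +DOX was highest and Sox2 -DOX lowest, and all 4 control arrays lay below the 4 arrays with induced Sox2. Of the Oct4 +DOX arrays, replicate 1 lay among the rtTA +DOX arrays and replicate 2 level with the lowest Sox2 +DOX array.

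Dusp1, which switches the MAP kinases off, stood at -0.50 and -0.08 in Sox2xOct4 +DOX, -0.96 and -0.25 in Oct4 +DOX, -1.64 and -0.49 in Sox2 +DOX, -0.06 and 0.91 in rtTA +DOX, and -0.25 and -0.23 in Sox2 -DOX. The rtTA +DOX arrays were the highest, and the ranges of the other groups overlapped in turn. Ier2, a growth factor-induced nuclear protein, stayed between 2.36 and 3.36, and both of these extremes were Oct4 +DOX arrays. The second Ier2 probe was far dimmer, at -5.23 to -2.80, and its lowest and highest arrays were both Sox2xOct4 +DOX. Ier3, an early gene linked to cell survival, had the narrowest range, from -1.43 to -0.68. For Ier2 the group means lay closer together than the Oct4 +DOX replicates, which differed by 1.00. For Ier3 the group means ran from -1.36 in Sox2xOct4 +DOX to -0.90 in Oct4 +DOX, while its replicates differed by up to 0.45.

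**Figure D2:**
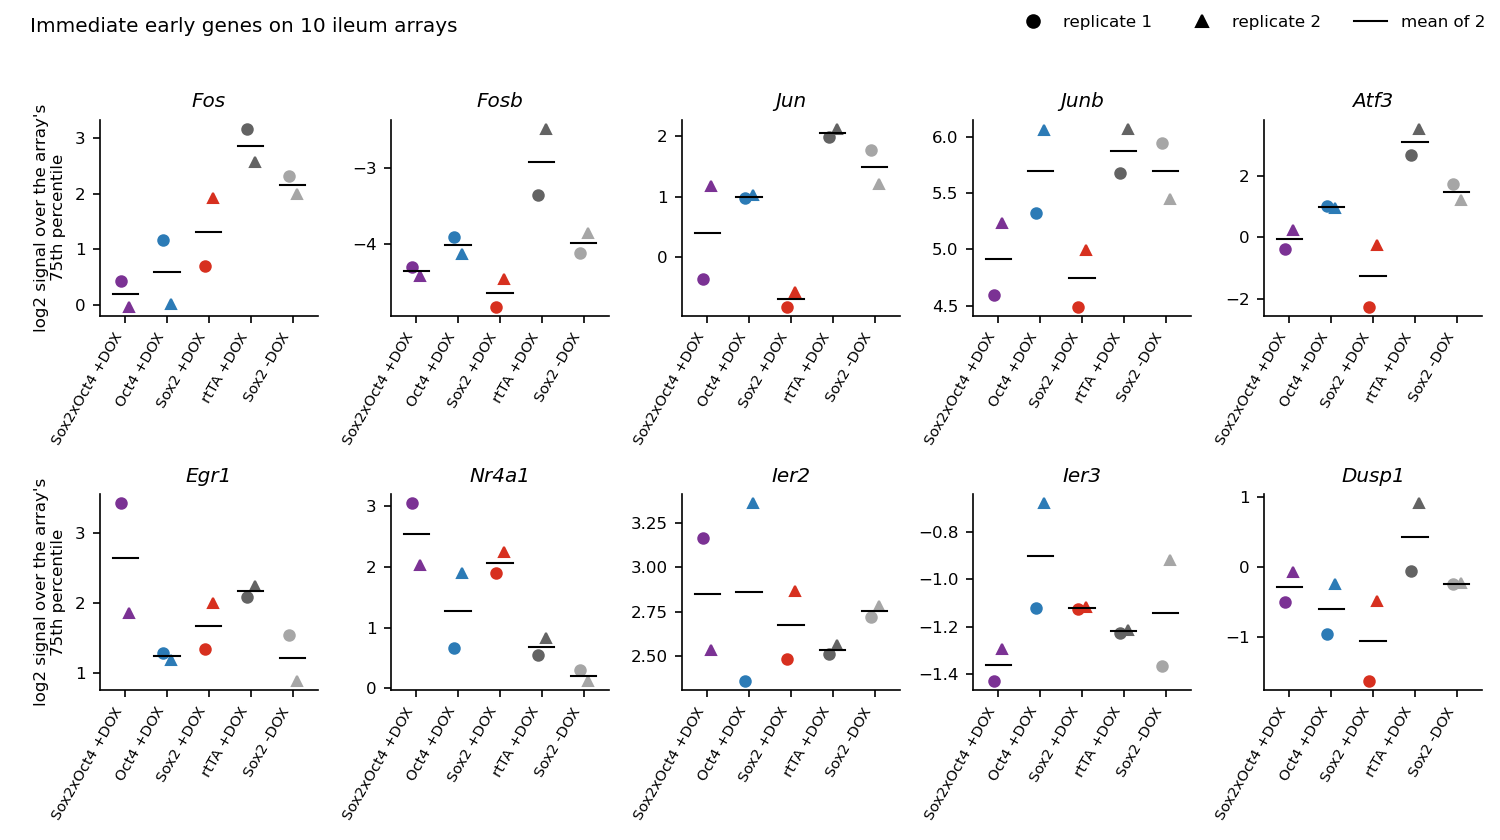
Log2 signal over the 75th percentile of the array (vertical axis, a separate scale in each panel) for 10 immediate early genes in 5 groups. Circles are replicate 1, triangles replicate 2 and bars their mean. Fos, Jun and Atf3 are highest on the rtTA +DOX and Sox2 -DOX arrays, while Nr4a1 is lowest on those and on Oct4 +DOX replicate 1.

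The spread between replicates was set beside that of the other genes. Over the 5 groups the SD between replicates had a median of 0.53 for the members and 0.40 for the 19055 genes tested. Atf3 had the largest, 0.74, and 85.8% of genes had a smaller one. Ier3 had the smallest, 0.20, with 11.4% of genes below it. The SD of the 5 group means was 1.65 for Atf3, 1.06 for Jun and 0.96 for Nr4a1. Those values exceeded 97.0, 90.3 and 87.7% of genes, that of Fos exceeded 91.1%, whereas those of Ier2 and Ier3 exceeded 2.4 and 5.3%. The members therefore differed among themselves, from a gene among the most variable to a pair among the least variable.

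**Figure D3:**
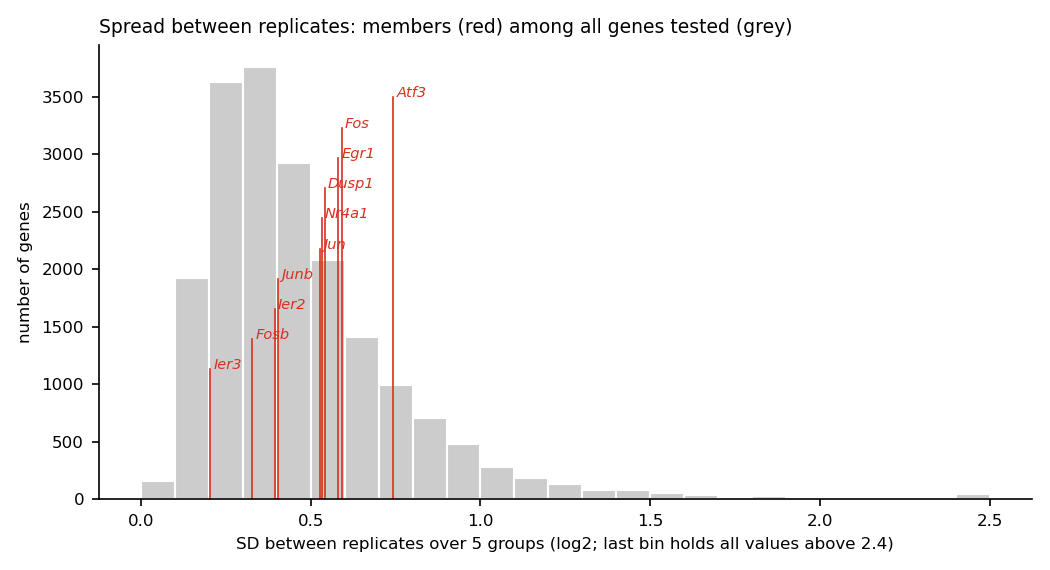
Histogram of the SD between replicates over 5 groups (horizontal axis, log2) for 19055 genes, with the number of genes on the vertical axis. Red lines mark the 10 members and their heights only separate the labels. Most members lie to the right of the median of 0.40, and Atf3 is the furthest right at 0.74.

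The first comparison, within slide 1, set 2 days of Sox2 induction against untreated mice of the same transgene. Sox2 induction and the DOX and sucrose given cannot be told apart in it. In Sox2 +DOX ileum Jun fell by 2.19 on the log2 scale and Atf3 fell by 2.74, relative to Sox2 -DOX, and no member rose. Both belong to the AP-1 and ATF family, and the other AP-1 members lay lower without passing the test. Jun averaged -0.70 ± 0.17 in Sox2 +DOX and 1.49 ± 0.41 in Sox2 -DOX (SD, n = 2 each), a 4.58-fold lower signal (SE of the log2 change 0.47, limma adjusted p = 0.0313). Atf3 averaged -1.25 ± 1.43 and 1.49 ± 0.36 in the same groups, a 6.68-fold lower signal (SE 0.62, limma adjusted p = 0.0365). Of the 19055 genes tested, 7.84% passed here, 4.8% with a lower and 3.03% with a higher signal, beside 2 of the 10 members. With normexp background 941 of 1910 called genes were higher, against 578 of 1493 here. Fos gave -0.85 ± 0.52 (SE, limma adjusted p = 0.32), Junb -0.96 ± 0.39 (adjusted p = 0.163) and Fosb -0.66 ± 0.35 (adjusted p = 0.255). Nr4a1 gave 1.87 ± 0.48, a 3.65-fold higher signal that just missed the threshold (limma adjusted p = 0.0514, 95% interval 0.78 to 2.96). Egr1, Ier2 and Ier3 gave 0.46, -0.08 and 0.02, with intervals that all included 0. The arrays of the groups did not overlap for 6 members that were lower and 1 that was higher, beside 36.6 and 29.8% of all genes. The median log2 change was -0.74 over the 10 members and -0.10 over all genes.

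Both calls were lost with arrays left out. Jun was not called without Sox2 +DOX replicate 1 (-2.07), Sox2 +DOX replicate 2 (-2.31), Sox2 -DOX replicate 1 (-1.91) or Sox2 -DOX replicate 2 (-2.48). Atf3 lost its call without replicate 1 of Sox2 +DOX (-1.73) or either of the Sox2 -DOX arrays (-2.49 and -2.99), nor did it pass with all dim probes kept (adjusted p = 0.0534), with the 4 arrays alone (0.102) or in the authors' normalized values (0.101). Sox2 +DOX replicate 1 held the lowest Atf3 level of the 10 arrays. Nr4a1 passed the test under 5 other settings, with adjusted p of 0.0296 with a variance trend, 0.0419 in the authors' normalized values, 0.0449 with the 4 arrays alone, 0.0457 with normexp background and 0.0488 with quantile normalization.

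The second comparison, within slide 2, set induction of both factors against rtTA +DOX mice given the same DOX. In Sox2xOct4 +DOX ileum Fos fell by 2.66, Atf3 fell by 3.18 and Fosb fell by 1.45 on the log2 scale, and no member rose. Fos averaged 0.20 ± 0.32 in Sox2xOct4 +DOX and 2.86 ± 0.43 in rtTA +DOX (SD, n = 2 each), a 6.32-fold lower signal (SE 0.52, limma adjusted p = 0.0258). Atf3 averaged -0.06 ± 0.45 and 3.13 ± 0.61, a 9.09-fold lower signal (SE 0.62, limma adjusted p = 0.0261). Fosb averaged -4.37 ± 0.09 and -2.92 ± 0.63, a 2.74-fold lower signal (SE 0.35, limma adjusted p = 0.0476). Of all genes 6.34% were called, 3.19% higher and 3.15% lower, beside 3 of the 10 members. Jun gave -1.66 ± 0.47 (adjusted p = 0.0787) and Nr4a1 1.86 ± 0.48, a 3.64-fold higher signal (adjusted p = 0.0574, 95% interval 0.77 to 2.96). Junb gave -0.96 (adjusted p = 0.182) and Egr1 0.48 ± 0.51 (adjusted p = 0.617). Arrays did not overlap for 7 members that were lower and 1 that was higher, beside 24.1 and 28.7% of all genes. The median was -0.84 over the members and 0.07 over all genes.

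These calls were lost with arrays left out as well. Fos was not called without Sox2xOct4 +DOX replicate 1 (-2.89) or 2 (-2.43), nor without rtTA +DOX replicate 1 (-2.36) or 2 (-2.96). Atf3 was not called without Sox2xOct4 +DOX replicate 1 (-2.87), rtTA +DOX replicate 1 (-3.62) or rtTA +DOX replicate 2 (-2.75). Fosb was not called whichever of the 4 was left out, with values of -1.90 to -1.01. Its call was also lost with normexp background (-0.66, adjusted p = 0.0653), with all dim probes kept (adjusted p = 0.0813), with a variance trend (0.0718) and with the 4 arrays alone (0.14). Jun passed the test without Sox2xOct4 +DOX replicate 2, at -2.43 (adjusted p = 0.0183). That array held the higher of the Jun levels of its group. Nr4a1 passed the test without the same array, at 2.37 (adjusted p = 0.0451), and with normexp background, at 1.91 (adjusted p = 0.0418), quantile normalization (0.0476) and a variance trend (0.0316). Jun also passed with a variance trend (adjusted p = 0.0492).

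**Figure D4:**
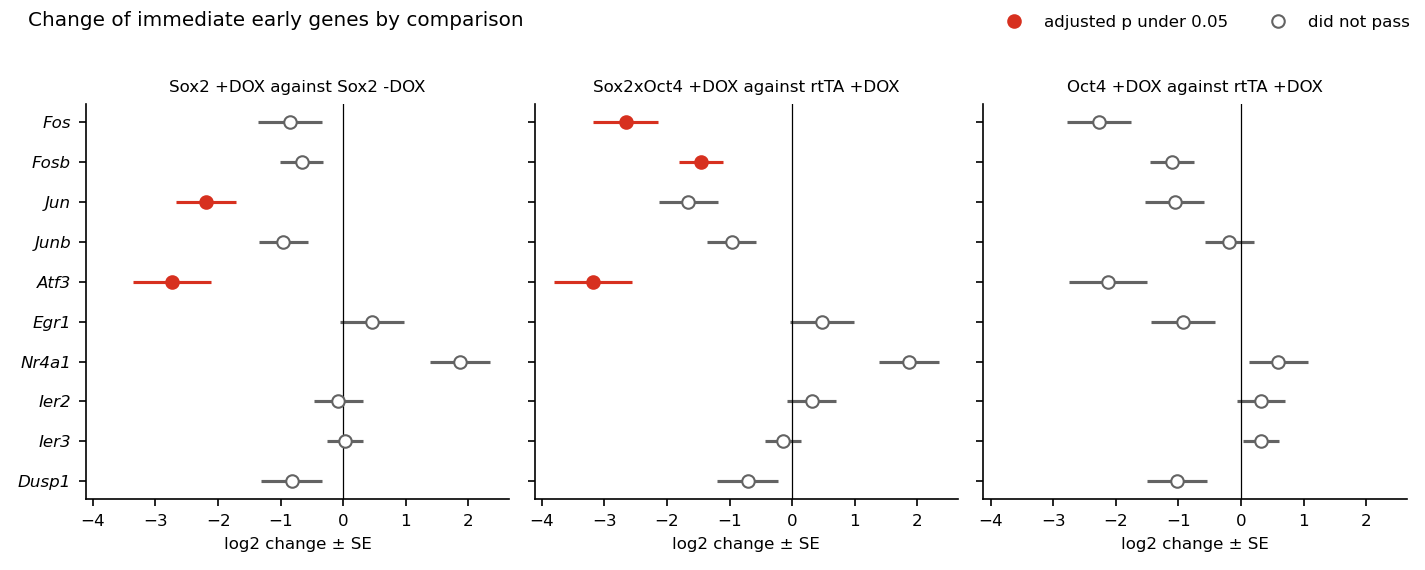
Log2 change with its SE (horizontal axis) of 10 immediate early genes in 3 comparisons, n = 2 arrays a group. Filled red points passed a limma adjusted p of 0.05 and open points did not. Jun and Atf3 passed in Sox2 +DOX against Sox2 -DOX, Fos, Fosb and Atf3 in Sox2xOct4 +DOX against rtTA +DOX, and none in Oct4 +DOX against rtTA +DOX.

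Oct4 induction alone was compared with the same rtTA +DOX arrays across slides, so slide and group cannot be told apart. No member passed the test (limma), 3 had an unadjusted p under 0.05, and 1.01% of all genes were called. The 3 were Fos, at -2.27 ± 0.52 (adjusted p = 0.0942), Atf3, at -2.13 ± 0.62 (adjusted p = 0.18), and Fosb, at -1.11 ± 0.35 (adjusted p = 0.212). Fos averaged 0.59 ± 0.82 in Oct4 +DOX and 2.86 ± 0.43 in rtTA +DOX (SD, n = 2 each). The 95% interval of the Fos change ran from -3.45 to -1.08. These values share their rtTA +DOX arrays with those of the double transgenics. Nr4a1 gave 0.60 ± 0.48 (adjusted p = 0.658) and Egr1 -0.93 ± 0.51 (adjusted p = 0.491). The medians were -0.98 over the members and 0.01 over all genes.

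A further pair of comparisons reuses arrays of those above across slides 1 and 2, with the same limit. Sox2 +DOX against rtTA +DOX called 3 members lower, beside 5.14% of all genes called lower, 3.23% called higher and 8.37% called in all. Atf3 fell by 4.38 (SE 0.62, 20.8-fold lower, limma adjusted p = 0.00732), Jun by 2.76 (SE 0.47, adjusted p = 0.014) and Fosb by 1.74 (SE 0.35, adjusted p = 0.0237). Without rtTA +DOX replicate 2 none of these was called, at -3.95, -2.70 and -1.30. Jun was also lost without Sox2 +DOX replicate 1 (-2.64) or rtTA +DOX replicate 1 (-2.83), and Fosb without Sox2 +DOX replicate 1 (-1.56), with normexp background (-0.65) and with the 4 arrays alone. With the replicate number as a block Dusp1, at -1.49, passed as well (adjusted p = 0.04). With normexp background 950 of 1910 called genes were higher, against 615 of 1595 here. The control groups were also set against each other. In rtTA +DOX against Sox2 -DOX 8 of the 10 members had a value above 0, with a median of 0.62 over the members and 0.01 over all genes. No member and 0.0% of all genes were called there (limma), while Atf3, at 1.64 ± 0.62, and Fosb, at 1.07 ± 0.35, had an unadjusted p under 0.05 (adjusted p = 0.8 and 0.672).

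Whether the response to Sox2 induction differed from that to both factors was tested as the change in slide 1 minus the change in slide 2. The controls were unlike, untreated Sox2 -DOX mice on slide 1 and DOX-treated rtTA +DOX mice on slide 2. The difference therefore also holds that of rtTA +DOX against Sox2 -DOX, which was 0.70 for Fos with a median of 0.62 over the members. No member passed the test (limma), 1 had an unadjusted p under 0.05, and 0.168% of all genes were called, 4 of 32 higher (3 of 7 with normexp background, 15 of 43 with quantile normalization). That member was Fos, whose difference was 1.81 ± 0.73 (SE, adjusted p = 0.483, 95% interval 0.13 to 3.48). The difference was 0.00 for Nr4a1 and 0.44 for Atf3, with intervals of -1.54 to 1.55 and -1.58 to 2.47. These intervals are wide, and Fos being called in one comparison and Jun in the other does not show that the responses differ.

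Of 36 other immediate early genes measured, 1 rose and 2 fell in Sox2 +DOX against Sox2 -DOX, near the 7.84% of all genes called, with a median of -0.36 against -0.10 over all genes. Klf4, a zinc finger factor of differentiating epithelium, stood at 3.30 and 4.46 in Sox2 +DOX and 6.65 and 6.25 in Sox2 -DOX, and fell by 2.56 (limma adjusted p = 0.0257). Rhob, a small GTPase, fell by 1.38 (adjusted p = 0.0461), and Plk2, a polo-like kinase, rose by 2.25 (adjusted p = 0.0233). With Sox2xOct4 +DOX set against rtTA +DOX, 1 of the 36 rose and 2 fell, beside 6.34% of all genes called, with a median of -0.62 against 0.07. Klf4 fell by 2.46 (adjusted p = 0.0326) and Rhob by 1.89 (adjusted p = 0.0206). Nr4a2, the nearest relative of Nr4a1, stood at 0.52 and 1.57 in Sox2xOct4 +DOX and -1.63 and -1.30 in rtTA +DOX, and rose by 2.51 (adjusted p = 0.01). Leaving out arrays in turn kept the direction of all 6 changes and lost each call at least once. Rhob and Plk2 lost theirs whichever of the 4 arrays was left out, with Rhob between -1.50 and -1.26 on slide 1 and between -2.13 and -1.64 on slide 2, and Plk2 between 1.96 and 2.53. Klf4 kept its call on slide 1 only without Sox2 +DOX replicate 2 (-3.14; -2.76 to -1.98 without the others) and on slide 2 only without Sox2xOct4 +DOX replicate 2 (-3.09; -2.73 to -1.83 without the others). Nr4a2 was not called without rtTA +DOX replicate 1 (2.34) or 2 (2.67). With only the 4 arrays of a comparison all 6 calls were lost. In Oct4 +DOX against rtTA +DOX 0 of the 36 were called (limma), beside 1.01% of all genes. In Sox2 +DOX against rtTA +DOX, across slides, 1 rose and 6 fell, beside 8.37% of all genes called, with a median of -0.75 against -0.04. Plk2 rose by 2.44 there (limma adjusted p = 0.0164), Klf4 fell by 2.76, Ccn1, a matricellular protein, fell by 2.07 and Ier5 fell by 1.79 (adjusted p = 0.019, 0.0217 and 0.0219). Plk2 lost this call whichever array was left out (2.15 to 2.72), and Klf4, Ccn1 and Ier5 kept theirs only without Sox2 +DOX replicate 2 (-3.34, -2.39 and -2.20). Ccn1 gave -1.32 with normexp background, and Ier5 lost its call with the 4 arrays alone (adjusted p = 0.0616).

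Genes of MAP kinase feedback and of the delayed response to it, which act after the immediate early genes, did not fall with them. Of 19 measured, 4 rose and 0 fell in Sox2 +DOX against Sox2 -DOX, beside 3.03% of all genes called higher, and 3 rose and 0 fell in Sox2xOct4 +DOX against rtTA +DOX, beside 3.19%. In Sox2 +DOX against rtTA +DOX 3 rose and 0 fell, beside 3.23%. Dusp4, a nuclear MAP kinase phosphatase, stood at 1.81 and 1.68 in Sox2 +DOX and -0.35 and -0.52 in Sox2 -DOX, and rose by 2.18 (limma adjusted p = 0.0097). It also rose by 2.13 in Sox2xOct4 +DOX, with 1.65 and 0.98 against -1.01 and -0.62 in rtTA +DOX (adjusted p = 0.0125). Areg, an EGF receptor ligand, rose by 3.11 in Sox2 +DOX (adjusted p = 0.017), and Etv4, an ETS factor, by 3.82 in Sox2xOct4 +DOX (adjusted p = 0.043). Mmp3, a matrix protease, rose by 2.34 and 2.91 in the same comparisons (adjusted p = 0.0194 and 0.0117) and by 3.26 in Oct4 +DOX against rtTA +DOX (adjusted p = 0.0172). The fourth that rose in Sox2 +DOX was Spry4, an inhibitor of receptor tyrosine kinase signalling, which was well above background on 4 of the 10 arrays. On slide 1 Dusp4, Areg and Mmp3 kept their calls without Sox2 +DOX replicate 2 and lost them without Sox2 +DOX replicate 1, Sox2 -DOX replicate 1 or Sox2 -DOX replicate 2, with ranges of 2.10 to 2.27, 2.56 to 3.66 and 1.84 to 2.83. Spry4 kept its call only without Sox2 -DOX replicate 2, and it gave 0.49 with normexp background and was not called. On slide 2 Dusp4 kept its call only without Sox2xOct4 +DOX replicate 2, Etv4 lost it without any of the 4 arrays, and Mmp3 lost it without rtTA +DOX replicate 1 (2.54), with ranges of 1.79 to 2.47 for Dusp4 and 2.89 to 4.75 for Etv4. The Mmp3 change in Oct4 +DOX was lost without any of its 4 arrays (2.90 to 3.63). With normexp background Mmp3 kept its 3 calls at smaller values, 0.89 in Sox2 +DOX, 1.44 in Sox2xOct4 +DOX and 1.77 in Oct4 +DOX. With the 4 arrays alone the calls of Mmp3 and Spry4 on slide 1 and of Dusp4 and Etv4 on slide 2 were lost, and Etv4 was lost with normexp background as well (1.85). The medians of this list were 0.52 in the first comparison and -0.07 in the second, so the risers do not describe the list as a whole. The 19 upstream regulators measured hold serum response factor, CREB and the MAP kinases themselves. Of these, 1 rose in Sox2 +DOX against Sox2 -DOX, beside 3.03% of all genes called higher. It was Rps6ka3, a kinase of CREB, by 2.02 (adjusted p = 0.0212), lost without Sox2 +DOX replicate 1 (1.48), Sox2 -DOX replicate 1 (2.21) or Sox2 -DOX replicate 2 (1.83), with the 4 arrays alone (adjusted p = 0.0799) and in the authors' normalized values (0.0726). None of the 19 was called in Sox2xOct4 +DOX or Oct4 +DOX against rtTA +DOX (limma), beside 6.34 and 1.01% of all genes. In Sox2 +DOX against rtTA +DOX 2 rose, beside 3.23% of all genes called higher. They were Rps6ka3, by 2.20, and the MAP kinase gene Mapk9, by 1.28 (limma adjusted p = 0.0149 and 0.0355). Rps6ka3 kept that call only without Sox2 +DOX replicate 2 (2.74, and 1.66 to 2.20 otherwise) and lost it with the 4 arrays alone (adjusted p = 0.055). Mapk9 lost its call whichever array was left out (1.11 to 1.44), with the dim probes kept (adjusted p = 0.0675) and with the 4 arrays alone (0.0718).

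Markers of other cells moved with some of these changes. The summed level of 10 smooth muscle markers, in units of the 75th percentile, was 71.1 and 55.1 in Sox2 +DOX and 198.1 and 143.1 in Sox2 -DOX. In Sox2xOct4 +DOX it was 52.8 and 458.3, against 153.0 and 345.4 in rtTA +DOX, so the replicates of the double transgenics differed widely. Fos and Atf3 were low on both of those arrays, while Jun was lower on the first and Nr4a1 higher on it. Summed levels of 6 ileal enterocyte markers were 85.3 and 248.8 in Sox2 +DOX and 606.6 and 547.9 in Sox2 -DOX, and 203.0 and 583.5 in Sox2xOct4 +DOX against 401.2 and 616.3 in rtTA +DOX. Of these 6, Cubn, a receptor for vitamin B12 uptake in the ileum, fell by 4.21 in Sox2 +DOX against Sox2 -DOX (limma adjusted p = 0.0105). Of the 8 T cell markers, 2 fell in Sox2 +DOX against Sox2 -DOX, beside 4.8% of all genes called lower. They were Cd3d, by 2.08, and Thy1, by 1.16 (limma adjusted p = 0.0141 and 0.0499). The sums of the T cell list were 2.28 and 3.47 in Sox2 +DOX and 10.4 and 8.68 in Sox2 -DOX. Sums of 6 adipocyte markers were 1.67 and 4.35 in Sox2 +DOX and 11.5 and 11.8 in Sox2 -DOX, and Lipe, the hormone-sensitive lipase, fell by 2.67 there (limma adjusted p = 0.00659). All 10 smooth muscle and 6 enterocyte markers were well above background in every group, while 7 of 8 T cell markers were in Sox2 +DOX. The adipocyte gene Lep was not on either array of Sox2 +DOX, Sox2xOct4 +DOX or the control rtTA +DOX. No smooth muscle marker was called in any comparison, beside 0.0 to 8.37% of all genes. Gfap, which marks enteric glia, was not well above background in any group. Of 8 macrophage and granulocyte markers 2 rose in Sox2 +DOX against Sox2 -DOX, beside 3.03% of all genes called higher. In Sox2xOct4 +DOX against rtTA +DOX 2 rose as well, beside 3.19%. S100a9, a neutrophil protein, rose by 2.82 in Sox2 +DOX and by 5.38 in Sox2xOct4 +DOX (limma adjusted p = 0.0268 and 0.00357). In these comparisons 4 and 3 of the 8 values lay below 0, with medians of 0.16 and 0.10. S100a9 also rose by 3.88 in Oct4 +DOX against rtTA +DOX, across slides (limma adjusted p = 0.0243). It was the only 1 of the 8 called there, beside 1.01% of all genes. The sums of this list were 74.0 and 79.8 in Sox2 +DOX and 86.1 and 95.1 in Sox2 -DOX. They were 50.8 and 107.5 in Sox2xOct4 +DOX against 51.8 and 81.6 in rtTA +DOX. The calls of these cell markers were not checked with arrays left out or under the other settings. The part of these cell types in the changes of the members was not tested.

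The mean of the 10 members, each centred over the arrays, was used to find genes with a like pattern. The members were not scaled, so those with the widest spread weighed most, and opposite members partly cancelled. On Sox2xOct4 +DOX replicate 1 the mean was -0.12, with the 5 AP-1 and ATF members averaging -0.91 and Nr4a1 at 1.70. A gene like this mean need not be like each member. Among 16072 genes well above background on all arrays, the highest Pearson correlations over the 10 arrays were those of Vwce (0.961), Pdgfa (0.959), Lpp (0.949), Serpinf2 (0.948) and Rdh7 (0.946). Arg2 (0.943), Aqp3 (0.942), Serpina1c (0.931), Acy3 (0.928) and Ppm1b (0.927) followed. The 10 points share groups and slides, so the values are descriptions. On the arrays themselves the mean of the 5 AP-1 and ATF members was highest on rtTA +DOX replicate 2, at 1.46 above their own means, and lowest on Sox2 +DOX replicate 1, at -1.45. All 5 lay below their own mean on Sox2xOct4 +DOX replicate 1 and Sox2 +DOX replicate 1, and none did on either rtTA +DOX array.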

How the data were processed

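Total RNA from ileum was labelled with Cy3 and measured on 10 one-colour Agilent mouse arrays, per the labels. The authors deposited scanner files whose processed intensity per spot is background-subtracted by Agilent Feature Extraction (9.5.3.1, 10.7.1.1 and 10.7.3.1 on slides 1, 2 and 3, per the file headers, and 9.1 per the submitters' processing notes). The deposited files also give mean and background intensity, used for an alternative. A deposited table of the authors' normalized intensity values covers the 4 TetON-Sox2 arrays and served as another alternative.

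Of 45018 spots, 1639 controls and 45 to 65 outliers on each array were dropped, and the spots of 1 probe were averaged. The log2 of the processed intensity minus that of the array's 75th percentile (an intensity of 544.2 to 1613) was used. No probe was saturated. A probe was kept if both arrays of at least 1 group had it well above background (28760 of 41143). Names came from RefSeq tables for 80.2% of probes. Each gene was read by its probe of highest mean, which gave 19055 genes.

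Groups, taken from the labels, were compared in a limma fit of group means to all 10 arrays (limma 3.58.1, R 4.3.3, 5 residual and 3.3 prior degrees of freedom, median SE of 0.39). The Benjamini-Hochberg adjustment covered all genes tested, and "called", "rose" and "fell" mean an adjusted p under 0.05. On simulated data for Sox2 +DOX against Sox2 -DOX over 19055 genes, 0.455, 33.6 and 66.2% of genes changed by a log2 of 1, 2 and 3 were called and 2.98% of calls were false. Far fewer genes were changed in the simulation than the 1493 called in the data. The shares called depend on how many genes change, so they do not carry over to the real comparison. Named genes were all members and up to 4 called genes per list and comparison with the smallest p. The 10 genes most like the mean of the members were named too. Motifs, lists and members were chosen with earlier results of these data known. S100a9, Lep and Gfap are on the marker lists. Alternatives were normexp background (offset 50) with quantile normalization, quantile normalization, no filter on dim probes, every probe, a variance trend, a fit to the 4 arrays of a comparison alone, a block for slide or for replicate number, and each array left out (the array left alone then borrows the spread of the other groups). Python 3.11.15 with pandas 2.3.3, matplotlib 3.10.9 and numpy 2.4.6 made the tables and plots.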

Additional observations from a re-analysis of the deposited data

How the results depend on the processing

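The members called in Sox2 +DOX against Sox2 -DOX numbered 2, and 1 when dim probes were kept. They numbered 3, 1 of them higher, with normexp background, quantile normalization or a variance trend, and 2, 1 of them higher, with the 4 arrays alone or in the authors' normalized values. In Sox2xOct4 +DOX against rtTA +DOX they numbered 3, and 4, 1 of them higher, with quantile normalization or a variance trend and 2 with no filter or the 4 arrays alone. In Sox2 +DOX against rtTA +DOX they numbered 3, and 2 with normexp background or the 4 arrays alone. With each array left out in turn the count was 0 to 1 in Sox2 +DOX against Sox2 -DOX, 0 to 3 in Sox2xOct4 +DOX against rtTA +DOX, 0 to 3 in Sox2 +DOX against rtTA +DOX, and 0 in the other comparisons. The count of all called genes moved as well. In Sox2 +DOX against Sox2 -DOX it was 1493, and 932 without the filter, 619 with the 4 arrays alone, 693 in the authors' normalized table and 165 to 1729 with an array left out. In Sox2xOct4 +DOX against rtTA +DOX it was 1208, and 776 without the filter, 473 with the 4 arrays alone and 105 to 1076 with an array left out. In Oct4 +DOX against rtTA +DOX it was 192, and 111 with normexp background and 35 to 191 with an array left out. In Sox2 +DOX against rtTA +DOX it was 1595, and 1045 without the filter, 935 with the 4 arrays alone and 195 to 1675 with an array left out. For the difference of the responses it was 32, and 7 with normexp background, 16 with a variance trend and 5 to 52 with an array left out. In rtTA +DOX against Sox2 -DOX it was 0, and at most 13, with the 4 arrays alone. Both quantile settings raised the median of all genes by 0.11 in Sox2 +DOX against Sox2 -DOX, and Jun and Atf3 stayed called.

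The direction of some small changes turned. With normexp background Ier2 was 0.0098 in Sox2 +DOX against Sox2 -DOX, and the differences of the responses were -0.0358 for Junb and -0.12 for Nr4a1, which was -0.10 with quantile normalization. With an array left out, Ier2 ranged from -0.27 to 0.11 and Ier3 from -0.20 to 0.24 in Sox2 +DOX against Sox2 -DOX, and Egr1 from -0.31 to 1.26 and Ier2 from -0.0010 to 0.63 in Sox2xOct4 +DOX against rtTA +DOX. Junb ranged from -0.55 to 0.18, Ier2 from -0.18 to 0.82 and Nr4a1 from -0.0271 to 1.22 in Oct4 +DOX against rtTA +DOX, and Ier2 from -0.0544 to 0.33 in Sox2 +DOX against rtTA +DOX. Junb ranged from -0.0688 to 0.43 and Ier3 from -0.30 to 0.15 in rtTA +DOX against Sox2 -DOX. The differences of the responses ranged from -1.31 to 0.23 for Jun, -0.32 to 0.33 for Junb, -0.80 to 0.77 for Egr1, -0.0602 to 0.39 for Ier3, -0.57 to 1.46 for Atf3, -0.68 to 0.46 for Dusp1 and -0.50 to 0.51 for Nr4a1. None of these was called, and the cause was not tested.

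The replicate numbers were not taken to pair the arrays, since deviations of same-numbered arrays correlated between -0.128 and 0.275 over the pairs of groups. With the replicate block 2, 3, 0, 4, 0 and 0 members were called in the 6 comparisons, in the order of the text, where 2, 3, 0, 3, 0 and 0 were called without it. No block for slide was fitted, since each slide holds whole groups and such a term cannot be estimated apart from the groups. Fosb, at the lowest signal of the members, is the one most limited by signal over background.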

Other observations

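Of 15 heat shock genes, which report protein damage, 0 were called in any comparison, beside 0.0 to 8.37% of all genes. A count of 0 among 15 genes is near those shares. Their median was 0.66 in Sox2 +DOX against Sox2 -DOX, against -0.10 over all genes. In Sox2xOct4 +DOX against rtTA +DOX it was 0.17, against 0.07. Of 14 genes of the ATF4 and unfolded protein response, Trib3, a pseudokinase, was the only one called. It fell in both comparisons, beside 4.8 and 3.15% of all genes called lower. It stood at 0.19 and -0.31 in Sox2 +DOX and 1.71 and 1.55 in Sox2 -DOX (log2 change -1.69 ± 0.41, SE, limma adjusted p = 0.0439), and at -0.68 and 0.19 in Sox2xOct4 +DOX and 1.84 and 1.64 in rtTA +DOX (-1.98 ± 0.41, adjusted p = 0.0305). The first call was lost whichever array was left out (-1.94 to -1.44), and the second without Sox2xOct4 +DOX replicate 1 (-1.55) or rtTA +DOX replicate 1 (-1.88) or 2 (-2.09).

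Of 11 measured acute inflammatory genes, many of them targets of NF-kappaB, 4 fell in Sox2 +DOX against Sox2 -DOX, beside 4.8% of all genes called lower. Ccl4, a macrophage and T cell chemokine, stood at -4.33 and -3.75 in Sox2 +DOX and -1.26 and -1.17 in Sox2 -DOX and fell by 2.82 (limma adjusted p = 0.00634). Il1b, Ccl3 and Tnf fell by 1.79, 1.86 and 1.48 (adjusted p = 0.0257, 0.0258 and 0.0297). Ccl4 lost its call without Sox2 -DOX replicate 1 (-2.87), Il1b and Ccl3 without any array but Sox2 +DOX replicate 2 (-1.85 to -1.51 and -2.09 to -1.59), and Tnf without any of the 4 (-1.71 to -1.25). With normexp background Ccl3 and Tnf gave -0.57 and -0.44 and were not called, and Ccl4 and Il1b gave -1.55 and -0.98 and were called. With the 4 arrays alone Il1b, Ccl3 and Tnf were not called, nor were they in the authors' normalized values. Ccl4 kept its call under both of these settings. Tnf also lost its call with quantile normalization, with all dim probes kept and with a variance trend. In rtTA +DOX against Sox2 -DOX 10 of the 11 had a value below 0, with a median of -0.80 against 0.01 over all genes. None was called there. In Sox2 +DOX against rtTA +DOX, across slides, 2 rose and 1 fell, beside 3.23 and 5.14% of all genes. Ccl4, Il1b, Ccl3 and Tnf were not among them. In Sox2xOct4 +DOX against rtTA +DOX Il1rn rose by 2.05 and Tnfaip3 fell by 1.41 (limma adjusted p = 0.0353 and 0.039), beside 6.34% of all genes called. Il1rn was lost without any array but Sox2xOct4 +DOX replicate 2 (1.70 to 2.12) and Tnfaip3 without any of the 4 (-1.51 to -1.32). The difference between the responses was tested gene by gene, and 0 of 11 passed (limma), beside 0.168% of all genes. Of 10 glucocorticoid-induced genes, Pdk4 rose by 3.29 and Cdkn1a fell by 2.42 in Sox2xOct4 +DOX against rtTA +DOX (limma adjusted p = 0.02 and 0.0351). Beside these, 6.34% of all genes were called there. For Sox2 +DOX against Sox2 -DOX 0 of the 10 passed, beside 7.84% of all genes, and so few genes cannot show a difference between the comparisons. Pdk4 kept its call only without Sox2xOct4 +DOX replicate 1 (3.86, and 2.72 to 3.61 otherwise) and Cdkn1a only without Sox2xOct4 +DOX replicate 2 (-3.04, and -2.49 to -1.80 otherwise). In rtTA +DOX against Sox2 -DOX 9 of those 10 genes had a value above 0, with a median of 1.09 against 0.01 over all genes, and none was called.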
